A study of Mus musculus with 5 samples.

Results

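Sub-cluster 5 of lung group 2 innate lymphoid cells (ILC2s) was characterised by 15 genes that its list against all other lung sub-clusters named as higher. These members were chosen by taking every gene of that list, out of 688 distinct gene symbols named in any of the 262 lists of the series, and were read together with the 5 lists of sub-cluster 5 over each other lung sub-cluster (0 to 4) and the 5 reverse lists. The background share of listed symbols that were higher in sub-cluster 5 than in all others together was 2.18%. At least 1 of its 5 one versus one lists named 91 symbols as higher (13.2% of the 688), and at least 1 of the 5 reverse lists named 23 as lower (3.34%). The 5 genes by which the sub-cluster is labelled were all in the list against all, with Spry2 in place 1, Notch2 in place 2, Kdm6b in place 3, Kmt2d in place 5 and Pdcd4 in place 9.

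ILC2s were sorted from the lung of male C57BL/6 mice of 6 weeks as Lin–ST2+CD25+ cells after the tissue had been digested in collagenase for 1 h, and profiled by droplet-based single-cell RNA sequencing that reads the 3′ end of transcripts. Cells of 10 mice were pooled per library batch, and the labels name no altered gene and no treatment for any tissue. ILC2s of bone marrow (BM), large intestine (LI) and pancreas of such mice were sorted by the same markers and those of small intestine (SI) as Lin–CD45+ cells low in Thy1 and high in KLRG1, with 1 library per tissue. LI and SI were digested for 1.5 h and pancreas for 0.5 h, whereas BM was flushed from the bones. The lung, LI and SI libraries formed 1 library batch and the BM and pancreas libraries another. Each of the 36 sub-clusters was compared with the others of its own tissue, so that no tissue had a replicate and mice of a pool could not be told apart.

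A listing was a yes or no call. The lists gave no expression level, fold change, p-value or cell number, and the depth behind them is unknown. A gene absent from a list was not called at the threshold used, which the sources used here do not give, and its absence does not show that its levels were equal. Since the cells were grouped by the expression of these same genes, the lists describe sub-cluster 5 and are no test of it. The order of genes was kept as deposited, and the sources used here do not say what set it.

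ILC2s are tissue-resident lymphocytes without antigen receptors that answer alarm cytokines such as IL-33 with type 2 cytokines, and in the lung they act in allergic inflammation, defence against worms and repair. Notch receptors are bound by ligands on neighbouring cells and are then cut, which frees an intracellular part that joins the DNA-binding protein RBPJ and switches on targets such as Hes1. Sprouty proteins are feedback inhibitors of receptor tyrosine kinases upstream of ERK, and histone methyltransferases and demethylases set which enhancers and promoters are open to transcription.

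Of the 15 members, 9 were higher in sub-cluster 5 in all 5 of the one versus one lists. These were Spry2, Notch2, Kdm6b, Actb, Kmt2d, Sdc4, Birc6, Pdcd4 and Ncoa3. The next 2 were named in 4 lists, as Pim1 was missing from the comparison with sub-cluster 2 and Yes1 from that with sub-cluster 3. Ppp1r16b, Hes1 and Atxn1 were each named in 3 lists, and Cbx3 in 2. None of the 15 was lower in sub-cluster 5 than in any other lung sub-cluster.

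**Figure D1:**
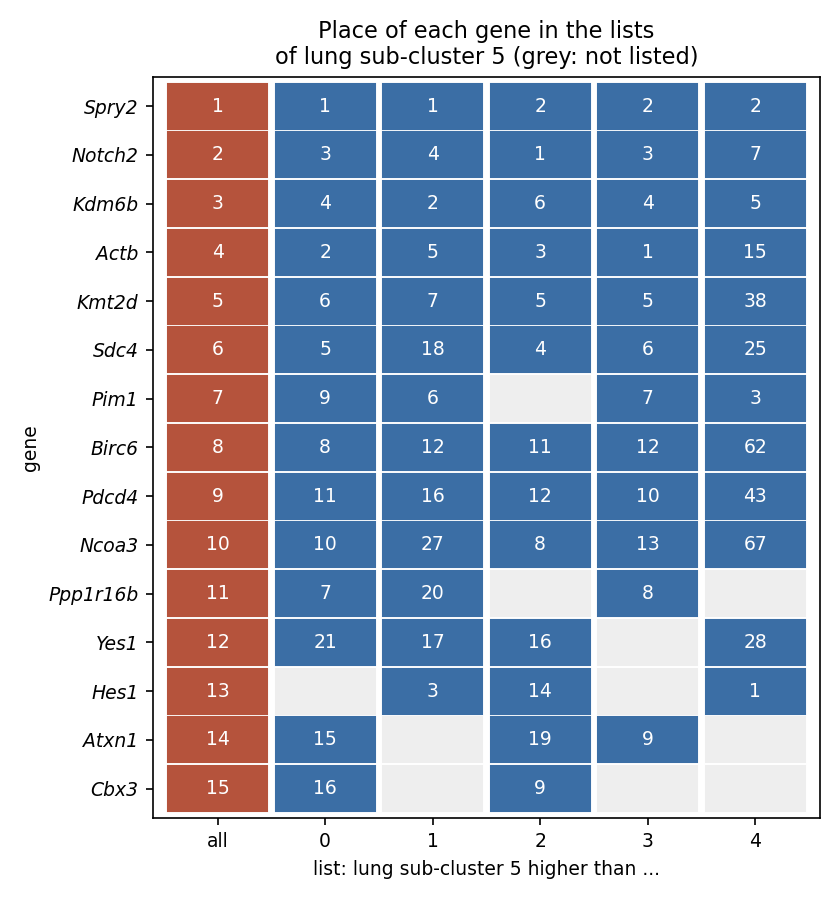
Grid of the 15 genes (rows) against the 6 lists of lung sub-cluster 5 (columns, red for the list against all and blue for the one versus one lists), with each gene's place in the list as deposited and grey where it was not named. The first 6 rows are filled throughout, and the gaps lie in Pim1 and the rows from Ppp1r16b down.

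Around this border, 16 genes were named in at least 3 of the 5 one versus one lists, and 14 of them were in the list against all. The other two were Skil and Hilpda. Skil, a co-repressor of SMAD transcription factors, was higher in sub-cluster 5 than in 0, 1 and 4. Hilpda, a lipid droplet protein induced by hypoxia, was higher over those same 3 sub-clusters. Cbx3 was inside the list against all with 2 one versus one lists, those over sub-clusters 0 and 2, whereas 14 other genes with 2 lists, among them Cdk6, Gm2a, Zc3hav1, Jun and Fos, were outside it.

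The Notch pathway was represented by a receptor and a target. Notch2 (chr3:98013527-98150361, plus strand, mm10) encodes a Notch receptor and was in place 3, 4, 1, 3 and 7 of the lists over sub-clusters 0, 1, 2, 3 and 4. It was named as higher in no other lung sub-cluster. Hes1 (chr16:30064384-30067796, plus strand) encodes a transcriptional repressor that is a classic Notch target. It was higher in sub-cluster 5 than in 1, 2 and 4, where it held places 3, 14 and 1, and was in neither direction of the comparisons with 0 and 3. Hes1 was thus not particular to sub-cluster 5, since it was also in the list of lung sub-cluster 3 against all and was higher in 3 than in 0, 1, 2 and 4. Of 39 genes of a Notch pathway list covering ligands, receptors, modifying enzymes and targets, 4 were listed anywhere in the series. Notch2 and Hes1 were 50.0% of these, beside 2.18% of all listed symbols in the list against all. The Notch list was drawn up with earlier results of these data known, so its share supports nothing. The remaining 2, the DNA-binding partner Rbpj and the target Hey1, were in 0 lung lists and in 3 and 1 lists of the whole series. No Notch ligand was listed in any sub-cluster.

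Chromatin regulators gave 4 of the 15 members. Kdm6b (chr11:69398508-69413675, minus strand), a demethylase that removes the repressive Polycomb mark from histone tails, was in place 4, 2, 6, 4 and 5 over sub-clusters 0 to 4. Kmt2d (chr15:98831669-98871204, minus strand), a histone methyltransferase of enhancers, was in place 6, 7, 5, 5 and 38. Both were thus in the first 7 places except that Kmt2d came late in the long list over sub-cluster 4. Ncoa3 (chromosome 2), a coactivator of nuclear receptors, was named in all 5 lists at places 10, 27, 8, 13 and 67. Cbx3 (chromosome 6), a heterochromatin protein that binds methylated histones, was named only over sub-clusters 0 and 2, at places 16 and 9. Of 68 genes of a chromatin list, 9 were listed anywhere, and 4 of those 9 (44.4%) were higher in sub-cluster 5, beside 2.18% of all listed symbols. This list was drawn up with the members known, so its share supports nothing. The other five listed were Kdm2b, Chd2, Chd7, Dot1l and Satb1, none of them named in either direction for sub-cluster 5.

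The members with roles in signalling were led by Spry2 (chr14:105891947-105896819, minus strand), which was in place 1 or 2 of each of the 5 one versus one lists. Spry2 was the only one of 9 listed genes of receptor tyrosine kinase and ERK feedback in the list against all (11.1%, beside 2.18% of all listed symbols). In at least 1 one versus one list 33.3% of the 9 were higher, beside 13.2% of all listed symbols. Dusp1, a phosphatase of MAP kinases, and Socs2, an inhibitor of cytokine receptor signalling, were higher only over sub-cluster 4. Dusp10, a phosphatase of p38 and JNK, was lower in sub-cluster 5 than in sub-cluster 2. Spry1, Dusp2, Dusp5, Errfi1 and Cish were named in neither direction. Yes1 (chromosome 5), a tyrosine kinase of the Src family, was at places 21, 17, 16 and 28 over sub-clusters 0, 1, 2 and 4. Pim1 (chromosome 17), a serine/threonine kinase induced by cytokines, was at places 9, 6, 7 and 3 over 0, 1, 3 and 4. Ppp1r16b (chromosome 2), a targeting subunit of a protein phosphatase, was at places 7, 20 and 8 over 0, 1 and 3.

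Cell surface and skeleton genes were Sdc4 and Actb. Sdc4 (chromosome 2) encodes a heparan sulfate proteoglycan of adhesion sites and was in place 5, 18, 4, 6 and 25 over sub-clusters 0 to 4. Actb (chromosome 5) encodes beta-actin and was in place 2, 5, 3, 1 and 15. Of 15 listed cytoskeleton genes Actb was the single one higher in sub-cluster 5 (6.67%, beside 13.2% of all listed symbols). Actg1, Actn2, Capg, Vim and Crip1 were each lower in it than in 1 other sub-cluster, beside 3.34% of all listed symbols. Of these, Actn2, Capg, Vim and Crip1 were in the list of lung sub-cluster 1 against all. Actb and the gamma-actin gene Actg1 encode almost the same protein, and both Actb and Cbx3 have processed pseudogenes. Whether reads with several matches touched these calls was not tested, and the calls are uncertain to that extent.

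The remaining members were Birc6, Pdcd4 and Atxn1. Birc6 (chromosome 17), a very large inhibitor of apoptosis that also conjugates ubiquitin, was named in all 5 lists, at places 8, 12, 11, 12 and 62. Pdcd4 (chr19:53892231-53929860, plus strand), which holds back translation initiation by binding an RNA helicase, was in all 5 at places 11, 16, 12, 10 and 43. Atxn1 (chromosome 13), a polyglutamine protein that works with the repressor Capicua, was at places 15, 19 and 9 over sub-clusters 0, 2 and 3.

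Promoter windows of 300 bases, from 250 bases before to 50 after an annotated start, were taken from RefSeq (GRCm38.p6), which gave 14 windows for 10 of the 15 members. Kdm6b, Actb, Ncoa3, Hes1 and Atxn1 had no entry. The windows of the leading genes Spry2 and Notch2 are shown with the only member windows that hold TGGGAA, the core word bound by the Notch partner RBPJ, on either strand. Capitals mark that word (or TTCCCA, its reverse complement), and each window is written 5′ to 3′ on the strand of its gene.
Spry2 (chr14:105896770-105897069, minus strand): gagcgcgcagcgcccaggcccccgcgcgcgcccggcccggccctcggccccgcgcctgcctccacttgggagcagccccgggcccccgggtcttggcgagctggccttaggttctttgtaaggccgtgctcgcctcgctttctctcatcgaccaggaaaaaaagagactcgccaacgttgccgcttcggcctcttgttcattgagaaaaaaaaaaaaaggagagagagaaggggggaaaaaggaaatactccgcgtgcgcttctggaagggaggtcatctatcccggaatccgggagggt
Notch2 (chr3:98013288-98013587, plus strand): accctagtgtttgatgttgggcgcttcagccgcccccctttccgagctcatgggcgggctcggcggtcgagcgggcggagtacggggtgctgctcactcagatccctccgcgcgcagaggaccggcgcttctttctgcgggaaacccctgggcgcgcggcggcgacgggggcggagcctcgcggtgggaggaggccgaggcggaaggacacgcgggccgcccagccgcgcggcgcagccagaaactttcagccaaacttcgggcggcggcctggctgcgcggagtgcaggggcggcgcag
Pdcd4 (chr19:53891981-53892280, plus strand): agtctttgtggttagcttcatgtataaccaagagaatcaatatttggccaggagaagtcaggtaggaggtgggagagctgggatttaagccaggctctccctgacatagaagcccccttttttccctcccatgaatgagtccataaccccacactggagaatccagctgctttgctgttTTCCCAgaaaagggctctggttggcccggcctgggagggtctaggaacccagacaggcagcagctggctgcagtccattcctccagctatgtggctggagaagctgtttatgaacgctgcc
Cbx3 (chr6:51471002-51471301, plus strand): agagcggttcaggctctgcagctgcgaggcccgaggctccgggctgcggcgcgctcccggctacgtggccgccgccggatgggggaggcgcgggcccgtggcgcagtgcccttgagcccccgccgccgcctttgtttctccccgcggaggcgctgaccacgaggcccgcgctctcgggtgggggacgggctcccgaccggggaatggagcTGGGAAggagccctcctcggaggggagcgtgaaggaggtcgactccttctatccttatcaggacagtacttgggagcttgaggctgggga
The word began at base 180 of the Pdcd4 window and at base 211 of the Cbx3 window.

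TGGGAA was thus found in 2 of 10 members with a window (20.0%) and in 28.3% of all 27025 genes of the table. Of the other words searched on both strands, the N-box word CACNAG, to which Hes repressors bind, was in 5 of 10 members (Notch2, Pim1, Pdcd4, Ppp1r16b and Cbx3) and in 46.1% of all genes. The E-box word CACGTG was in Pim1 and in 8.09% of all genes. The ETS word CCGGAAG was in Ppp1r16b and Yes1 and in 9.93% of all. The short site TGACG of cyclic AMP response elements was in Ppp1r16b and in 23.0% of all. The full element TGACGTCA, which contains that short site, was in 2.03% of all genes, and the AP-1 word TGANTCA in 8.97%, and neither was in a member window. No test was made of these shares, and a match marks letters and not a site in use. The 14 member windows had a median GC content of 65.8% (range 49.0% to 81.3%) and a median of 27.5 CG pairs, beside 52.7% and 7 in all 32851 windows.

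The one versus one lists also ordered some members among the other lung sub-clusters. Spry2 was higher in sub-cluster 2 than in 0, 1 and 4, so that 5 stood above 2 and 2 above those, and sub-cluster 3 was named below 5 only. Kdm6b had the same order at its top, with 5 above 2 and 2 above 1 and 4. Actb was higher in 1 than in 0 and 3 and higher in 4 than in 0, all of them below 5. Pim1 was higher in each of 0, 1, 2 and 3 than in 4. The other members apart from Hes1, which were 10 in number, were named as higher in no lung sub-cluster other than 5. Where no list named a pair, the order of the pair is not known.

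The comparisons of sub-cluster 5 were unequal in size. It was higher in 21 genes than sub-cluster 0, in 27 than 1, in 20 than 2, in 13 than 3 and in 77 than 4. It was lower in 11 genes than sub-cluster 1, in 7 than 2 and in 5 than 4. The lists of genes lower than in 0 and in 3 were empty. Summed over its comparisons, sub-cluster 5 had 158 entries as the higher side and 23 as the lower, whereas sub-cluster 4 had 52 and 325. Its 23 entries on the lower side were the fewest of the 6 lung sub-clusters, the next being 59 in sub-cluster 3.

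**Figure D2:**
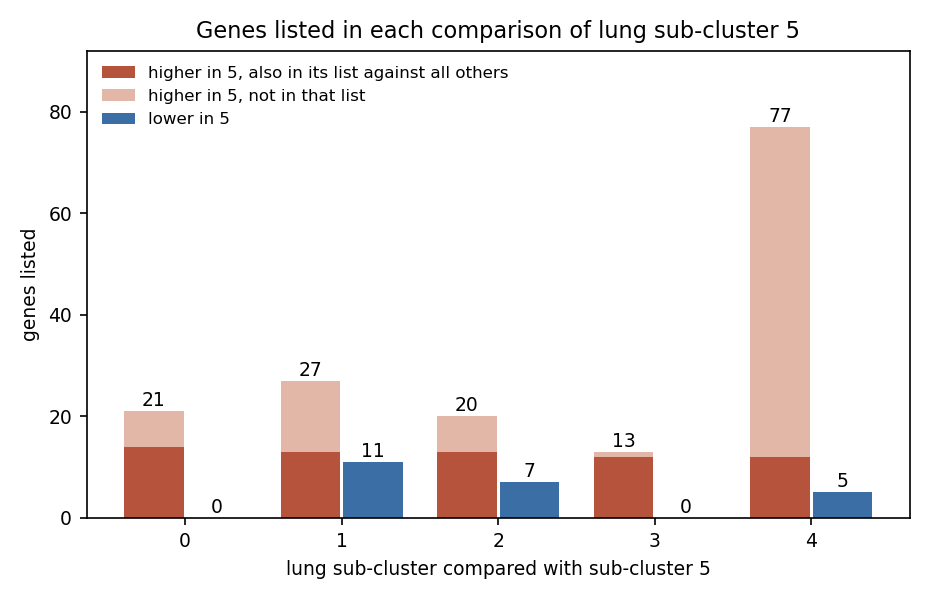
Number of genes (vertical axis) higher in sub-cluster 5 (red, dark for members of its list against all and pale for other genes) or lower in it (blue), for each lung sub-cluster it was compared with. Members made up 12 of 13 genes over sub-cluster 3 but 12 of 77 over sub-cluster 4.

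Members of the list against all were 14 of the 21 genes over sub-cluster 0, 13 of 27 over 1, 13 of 20 over 2, 12 of 13 over 3 and 12 of 77 over 4. The single other gene over sub-cluster 3 was Gm2a, a lysosomal lipid transfer protein. Of the 91 genes higher in at least 1 one versus one list, 52 were named over sub-cluster 4 and over no other lung sub-cluster, and none of these 52 was in the list against all. Without the comparison with sub-cluster 4, 39 genes remained higher in at least 1 list.

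Immediate early genes, which are transcribed within minutes of a stimulus, were among the genes outside the list against all. Of 28 such genes listed anywhere, 17 (60.7%) were higher in sub-cluster 5 in at least 1 one versus one list, beside 13.2% of all listed symbols. All 17 were named over sub-cluster 4. Fos, Jun, Klf6 and Cd69 were also named over sub-cluster 2, and Atf3 and Nr4a1 over sub-cluster 1. Over sub-clusters 0 and 3 the count was 0, and no immediate early gene was in the list against all. The same list of 28 gave 18 of the 50 genes named for sub-cluster 0 over 4 and 11 of 37 for 1 over 4. It gave 10 of 97 for 2 over 4, 13 of 64 for 3 over 4 and 17 of 77 for 5 over 4. These comparisons share sub-cluster 4 as their lower side. The immediate early list, like all lists of genes by function used here, was drawn up with earlier results of these data known. Shares of such lists therefore support nothing.

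The NF-kB regulators Nfkbia, Nfkbid, Nfkbiz and Tnfaip3 were 4 of 14 listed NF-kB genes (28.6%, beside 13.2% of all listed symbols). Over no sub-cluster other than 4 was any of them higher in sub-cluster 5. The same list gave 4 of the 50 genes named for sub-cluster 0 over 4 and 2 of 37 for 1 over 4. It gave 6 of 97 for 2 over 4, 4 of 64 for 3 over 4 and 4 of 77 for 5 over 4. These comparisons again share sub-cluster 4. Irf1 was the single one of 26 listed interferon response genes that was higher (3.85%, beside 13.2% of all listed symbols), also over 4 alone. None of 14 listed heat shock genes and none of 5 listed antigen presentation genes was named in either direction. Of 5 listed cell cycle genes 2 (40.0%) were higher, beside 13.2% of all listed symbols. They were Cdk6, a cyclin-dependent kinase of the early cell cycle, which was higher over sub-clusters 0 and 2, and Cdkn1a, the inhibitor p21, which was higher over 1 and 4. Of 7 listed genes of RNA binding and splicing, 2 (28.6%) were higher, beside 13.2% of all listed symbols. They were the splicing factor Srsf2 and the splicing kinase Clk1, both over 4 alone.

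Of 19 listed genes of type 2 effector products, 2 (10.5%) were higher in sub-cluster 5 in at least 1 list, beside 13.2% of all listed symbols, and 2 were lower, beside 3.34%. Areg, a growth factor of tissue repair, was higher over sub-cluster 4. Calca, which encodes the neuropeptide CGRP, was lower in sub-cluster 5 than in sub-cluster 2. Odc1, the enzyme that starts polyamine synthesis, was the only gene found on both sides, being higher than in sub-cluster 4 and lower than in sub-cluster 2. Of 16 listed genes of ILC2 identity, 0 were higher and 1, the CGRP receptor component Ramp3, was lower.

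The genes lower in sub-cluster 5 were spread over 3 lists with no gene in common. Compared with sub-cluster 1 these were S100a6, Lgals1, Crip1, Cd3g, Vim, S100a11, Actn2, S100a10, S100a4, Capg and Zeb2. Lgals1 encodes the lectin galectin-1, Vim the filament protein vimentin, Capg an actin-capping protein and the S100 genes calcium-binding proteins. Compared with sub-cluster 2 they were Calca, Ramp3, Crem, Dusp10, Odc1, Actg1 and Samsn1, of which Crem is a regulator of transcription that answers cyclic AMP. Compared with sub-cluster 4 they were Milr1, Zfas1, Ppm1n, Cd27 and Gm3336, of which Milr1 is an inhibitory receptor and Cd27 a co-stimulatory receptor of lymphocytes. Of 16 listed genes of galectins, S100 proteins and their companions, 8 were lower in sub-cluster 5, beside 3.34% of all listed symbols. The count of higher ones was 0, beside 13.2% of all listed symbols. All 8 of the lower genes were lower than in sub-cluster 1 only, and all 8 were in the list of sub-cluster 1 against all. This list of galectins, S100 proteins and companions was drawn up with earlier results of these data known, so its share supports nothing.

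Markers of cells that a sort of ILC2s could carry along were sought in the lists. Of 85 markers of T, B, natural killer, ILC3, myeloid, mast, endothelial, epithelial and fibroblast cells, 13 were listed anywhere in the series. None of the 13 was higher in sub-cluster 5, beside 13.2% of all listed symbols. Of the 13, 1 was lower, the T cell receptor complex gene Cd3g in the comparison with sub-cluster 1, beside 3.34% of all listed symbols. With so few listed markers, these counts say little about sub-cluster 5. No marker of B, endothelial, epithelial or fibroblast cells was listed in the series, so none of these could have been found. Only 2 ribosomal protein genes and 0 mitochondrially encoded genes were listed anywhere in the series. None was named in either direction for sub-cluster 5, which for the mitochondrially encoded genes could not have been otherwise. According to the study's methods, the authors removed clusters with signature genes of several of these cell types, which by itself can keep such markers out of the lists. The lists show differences between sub-clusters alone, so the level of these markers in sub-cluster 5 was not measured here.

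Among the 30 sub-clusters of other tissues, 2 shared at least 3 of the 15 genes in their lists against all. BM sub-cluster 4 shared 7 genes, which was 46.7% of the lung list and 87.5% of its own 8. Pancreas sub-cluster 4 shared 8, which was 53.3% of the lung list and 88.9% of its own 9. Actb, Cbx3, Kdm6b, Kmt2d and Notch2 were in all of these lists. Sdc4 and Ncoa3 were shared with BM alone, and Spry2, Pdcd4 and Ppp1r16b with pancreas alone. The BM and pancreas libraries were made in the other library batch than the lung library.

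**Figure D3:**
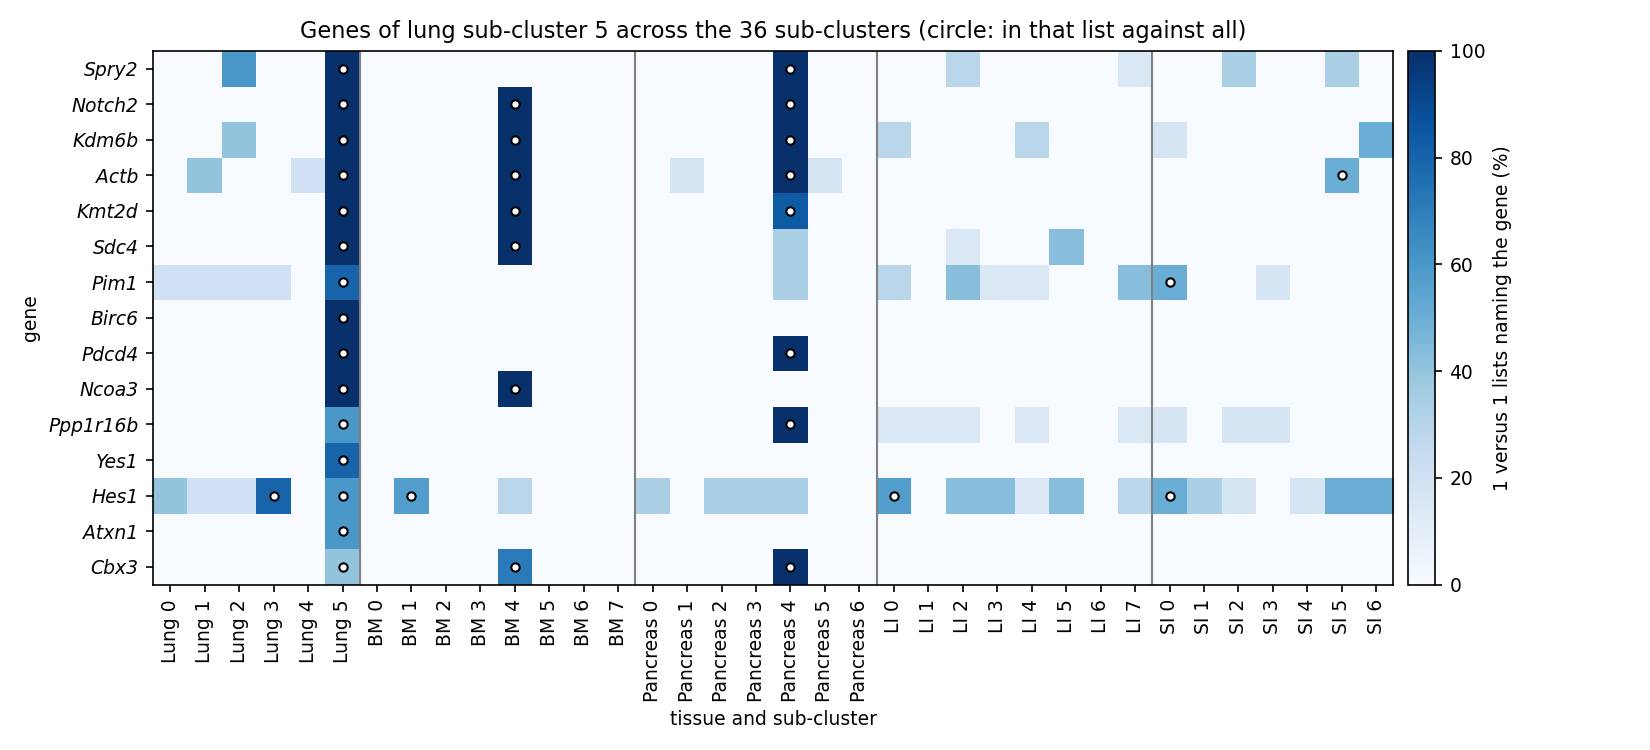
Heat map of the 15 genes (rows) in the 36 sub-clusters (columns, by tissue), with the share of a sub-cluster's one versus one lists that named the gene as higher (0 to 100%) and a circle where it was in the list against all. Dark columns appear at lung 5, BM 4 and pancreas 4, while Birc6, Yes1 and Atxn1 are filled at lung 5 alone.

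In these sub-clusters the one versus one lists gave the same genes different ranges. Notch2, Kdm6b and Actb were higher in all 7 comparisons of BM 4 and all 6 of pancreas 4. Kmt2d was higher in 7 of 7 and 5 of 6. Spry2, first in the lung list, was higher in 6 of 6 comparisons of pancreas 4 and in 0 of 7 of BM 4. Pdcd4 and Ppp1r16b followed Spry2, with 6 of 6 in pancreas and 0 of 7 in BM. Ncoa3 showed the opposite, with 7 of 7 in BM and 0 of 6 in pancreas. Sdc4 was higher in 7 of 7 and 2 of 6. Cbx3, which was named least often in lung with 2 of 5, was higher in 5 of 7 comparisons of BM 4 and 6 of 6 of pancreas 4.

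The members shared with neither were Pim1, Birc6, Yes1, Hes1 and Atxn1. Birc6, Yes1 and Atxn1 were named in no list of any sub-cluster other than lung 5. Hes1 was named in 46 lists of other tissues and was in the lists against all of BM 1, LI 0 and SI 0. Pim1 was named in 17 lists of other tissues and was in the list against all of SI 0. In the intestinal tissues, whose libraries were made in the batch of the lung library, the overlap was thus Hes1 with LI 0, Hes1 and Pim1 with SI 0, and Actb, the only gene listed, with SI 5.

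The genes that were lower overlapped in part, where 3.34% of all listed symbols were lower in lung 5. BM 4 was lower in 54 genes, 6 of which were among the 23 of lung 5 (11.1% of the BM genes and 26.1% of the lung genes). Pancreas 4 was lower in 53, of which 10 were shared (18.9% and 43.5%). Capg, Crip1, Lgals1, S100a4, S100a6 and Vim were shared with both. Pancreas also shared Actn2, Cd3g, S100a10 and S100a11. In lung all of these shared genes were in the list of sub-cluster 1 against all, and no other comparison named them as lower in 5. Lgals1, S100a4 and S100a6 were also in the lists against all of BM 3 and pancreas 5. Like lung 5 with 2 empty lists of 5, BM 4 had 3 empty lists of lower genes among 7 and pancreas 4 had 3 among 6.

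The rule did not use the length of a gene. The longest annotated transcript of the 15 genes had a median of 4586 nucleotides, with a range from 1468 in Hes1 to 19823 in Kmt2d. The median was 2926 in the 188 genes of any lung list with a length and 2791 in 682 genes listed anywhere. Transcripts of at least 5000 nucleotides made up 7 of 15 members (46.7%), namely Notch2, Kdm6b, Kmt2d, Birc6, Ncoa3, Ppp1r16b and Atxn1, beside 22.9% in lung lists and 18.3% in all lists. The median span of the gene on the chromosome was 37630 base pairs in the members and 15238.5 in all listed genes.

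**Figure D4:**
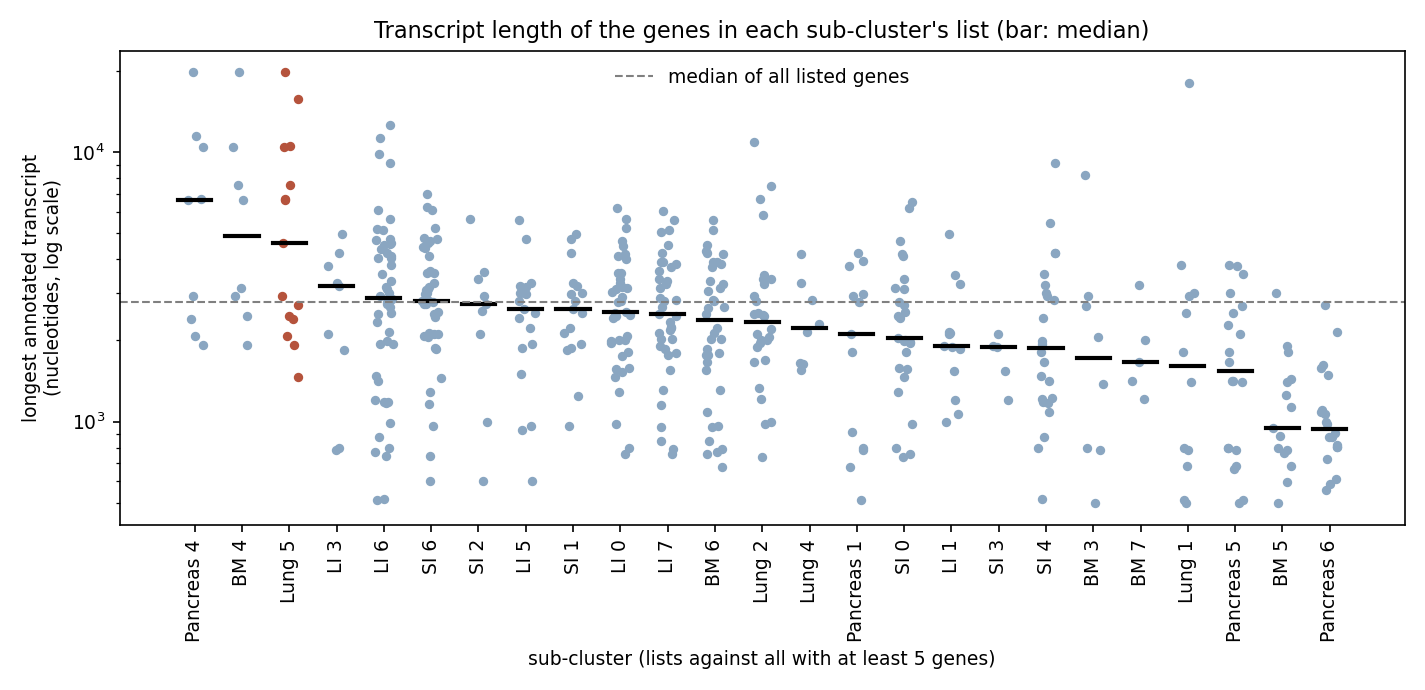
Longest annotated transcript of each gene (nucleotides, log scale) in the lists against all of the 25 sub-clusters with at least 5 genes, ordered by their median (bar), with lung 5 in red and the median of all listed genes dashed. Pancreas 4, BM 4 and lung 5 have the 3 highest medians, 6654, 4898.5 and 4586 nucleotides.

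By this median lung 5 ranked 3 among 25 sub-clusters, after pancreas 4 and BM 4, and the next was LI 3 with 3189 nucleotides. With coding transcripts only, the medians of pancreas 4, BM 4 and lung 5 stayed at these values, that of LI 3 became 2108 and the next was LI 6 with 2866. The ranks of lung 5, BM 4 and pancreas 4 rest in part on the same genes. The 5 genes they share had a median of 6654 nucleotides and the other 10 genes of lung 5 had 3642. The genes lower in sub-cluster 5 had a median of 1648 nucleotides, and 1 of 23 reached 5000. Spry2, Actb, Sdc4, Pim1, Pdcd4 and Hes1 were each below the median of all listed genes, so that length was not common to all members. The 15 genes lay on 11 chromosomes.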

How the data were processed

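According to the study's methods and the submitters' notes, the authors aligned and counted reads with Cell Ranger on mm10, filtered cells with scater, clustered each tissue with Seurat (version 2 in the notes, with R 3.6.1), removed clusters with signature genes of other cell types and called genes between each pair of sub-clusters and for each sub-cluster against the rest. The sources used here name no step against doublets. The deposited tables hold gene symbols alone and the sources used here do not give the threshold of the calls. These lists are the authors' own comparisons, and they are what defines the sub-cluster.

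Columns were read below their header on line 4, a column with only NA counted as empty, and listings were counted with Python 3.11.15. No test was made. Symbols were matched to GENCODE M21 (682 of 688 to a single gene), which gave coordinates (mm10, 1-based) and lengths. Shares use all 688 listed symbols as background, since the genes tested are not given. The text names all genes of the list against all, those of every one versus one list, the lower genes and those shared with BM 4 and pancreas 4. Members of the functional lists are named in part. The members and lists were chosen with earlier results of these data known. Alternatives took other definitions of a signature, another background, current names and 1 strand for motifs. The coding-transcript length was added after seeing the data. Counting was checked on made-up lists.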

Additional observations from a re-analysis of the deposited data

How the results depend on the processing

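With a signature of any one versus one list, at least 50% of them or every one, in place of the list against all, sub-cluster 5 had 91, 16 or 9 genes instead of 15. The genes shared with BM 4 were then 29, 6 or 6 instead of 7, those shared with pancreas 4 were 20, 7 or 5 instead of 8, and those in all of these lists were 9, 4 or 3 instead of 5. The genes of the functional lists were 38, 8 or 7 instead of 9. With any one versus one list, the overlaps with BM 4 and pancreas 4 were no longer the largest among other tissues. LI 0 then shared 50 genes, LI 2 46 and SI 0 44, from longer lists of 215, 132 and 120. As a share of its own genes, pancreas 4 had 71.4%, pancreas 2 70.0%, BM 1 68.2% and BM 4 65.9%. With at least 50% of the lists, no sub-cluster of another tissue except BM 4 and pancreas 4 shared more than 3. None of the 23 lower genes was in at least 50% of the reverse lists, and 0 were in every one, which follows from 2 of these lists being empty. As a share of the listed symbols, the 15 genes were 7.85% of the lung lists and 4.87% of the lists against all, instead of 2.18%. Current gene names left both overlaps at 7 and 8. On the gene's own strand alone, 1 member held TGGGAA instead of 2 and 3 held CACNAG instead of 5. Coding transcripts only left the median length of the members at 4586 nucleotides, although that of Cbx3 became 1889 instead of 2926. No paired analysis was possible because each tissue had 1 library and the lists hold no values. No depth is known, so no interval could be given.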
